A study of Homo sapiens with 2 samples.

Results

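The cytosolic ribosomal protein genes were followed in human inner ear organoids at the level of single cells. The members were chosen by gene symbol: RPL or RPS followed by a number, with an optional A, X or L ending, together with RPLP0, RPLP1, RPLP2 and RPSA. This rule gave 81 genes of 36601 listed, 49 of the large subunit and 32 of the small subunit, and 79 of them had at least 10 CPM (UMIs, or captured transcripts, scaled to 1000000 per library) in a library. The family was proposed for study because RPS10 was already known to differ between these libraries, and that contrast is therefore given as a description. The organoids came from WA25 human embryonic stem cells with a SOX2-ntdTomato reporter (cell line SOX2nT or SOX2nt), and reporter-positive cells were sorted at day 40. Here 1 library came from organoids labelled GelNB-CH, a hydrogel polymerized under UV light, and the other from organoids labelled Matrigel, a basement membrane extract. The growth text given for both describes the hydrogel only, with embedding on day 11 with 0.1 wt% PEG4SH and oDex (0.02%) on day 15, and the sources used here do not say how the Matrigel organoids were embedded. Every group was 1 library of 1 cell line, so no comparison between them has a replicate and no p-value is given.

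The ribosome reads mRNA and joins amino acids into protein, and each of its protein subunits is built from a separate gene in near-equal amounts. Transcripts of these genes are among the most abundant in any growing cell, and most begin with a run of pyrimidines at the start site, the terminal pyrimidine tract, through which their translation responds together to growth signals. Several members have near copies with restricted use: RPL39L and RPL10L are known from testis, RPL3L from heart and skeletal muscle, and RPS27L as a target of the tumour suppressor p53.

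The windows below run from 15 bases before to 15 bases after the RefSeq start site (GRCh38.p14) and are shown because the tract is the feature the family is known for. Capitals mark the tract, taken from the first C of a run of C or T, with at least 4 more C or T after it. That first C had to lie within 5 bases of the start. A run whose first C lay farther before the start was not counted, even where the run crossed the start. The first 4 genes were among the lower ones in GelNB-CH, RPS14 was among the higher ones, RPS12 and RPLP1 had among the highest levels, and RPS10 and RPS27L were the exceptions described further on.
RPL38, chr17:74203663-74203692, plus strand: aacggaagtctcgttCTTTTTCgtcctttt
RPS27, chr1:153990747-153990776, plus strand: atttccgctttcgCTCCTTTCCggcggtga
RPL39, chrX:119791616-119791645, minus strand: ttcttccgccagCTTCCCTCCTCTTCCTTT
RPS21, chr20:62387088-62387117, plus strand: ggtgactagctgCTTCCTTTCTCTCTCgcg
RPS14, chr5:150449725-150449754, minus strand: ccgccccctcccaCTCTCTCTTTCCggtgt
RPS12, chr6:132814554-132814583, plus strand: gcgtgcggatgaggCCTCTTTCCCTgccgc
RPLP1, chr15:69452803-69452832, plus strand: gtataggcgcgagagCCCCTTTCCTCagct
RPS10, chr6:34426055-34426084, minus strand: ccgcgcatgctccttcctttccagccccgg
RPS27L, chr15:63157463-63157492, minus strand: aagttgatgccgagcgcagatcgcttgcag
A tract was found in 40 of 64 members with a RefSeq promoter entry (62.5%), against 4899 of 27241 other genes (18.0%). It was present in genes that were lower and in genes that were higher in GelNB-CH. RPS27L had none in this window. The pyrimidine run of RPS10 crossed the start but began just outside the 5-base reach, so it was not counted as a tract. The same held for some other members, so 40 of 64 depends on this reach.

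The libraries held 18253 GelNB-CH and 9800 Matrigel cells after filtering, with a median of 8558 and 14001.5 unique molecular identifiers (UMIs, 1 per captured transcript) per cell, and 78 barcodes were listed in both. Clustering without any member gave 26 clusters, and 6 lineages held at least 100 cells in each library: otic epithelium-like, mesenchyme-like, cartilage-like, Schwann or satellite glia-like, neuron-like and CNS progenitor-like. The 7 otic epithelium-like clusters each raised 9 to 13 of 17 otic markers. The sorted gene SOX2 gave a UMI in 11.8% of the GelNB-CH and 18.1% of the Matrigel cells, although all were sorted for the reporter. With 3′ counting a level in CPM counts transcript ends and needs no division by length.

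Members supplied nearly the same part of all UMIs in both libraries. Their summed share was 23.8% in GelNB-CH (43962042 of 184627310 UMIs) and 23.5% in Matrigel (36942490 of 156943283). The ratio was 1.01 (95% exact conditional binomial interval 1.011 to 1.012). This interval, like all others here, covers counting error only. The balance between the subunits differed more: large subunit members gave 1.41 UMIs per small subunit UMI in GelNB-CH and 1.46 in Matrigel.

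Between lineages the share differed far more than between libraries. It was lowest in neuron-like cells, at 16.1% in GelNB-CH and 18.4% in Matrigel. CNS progenitor-like cells had 21.1% and 20.3%, and otic epithelium-like cells 21.9% and 22.5%, in GelNB-CH and Matrigel. The order of the 6 lineages was the same in both libraries. Schwann or satellite glia-like cells followed with 23.9% in GelNB-CH and 23.0% in Matrigel, then mesenchyme-like cells with 26.6% and 26.0%. Cartilage-like cells were highest, with 29.1% in GelNB-CH and 27.7% in Matrigel. Single cells spread widely around these sums. Between the 10th and 90th percentile over cells, GelNB-CH cartilage-like cells ran from 21.3% to 37.2% and Matrigel ones from 18.4% to 36.5%. GelNB-CH neuron-like cells ran from 8.70% to 24.3% and Matrigel ones from 9.33% to 26.9%, so the lineages overlapped.

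**Figure D1:**
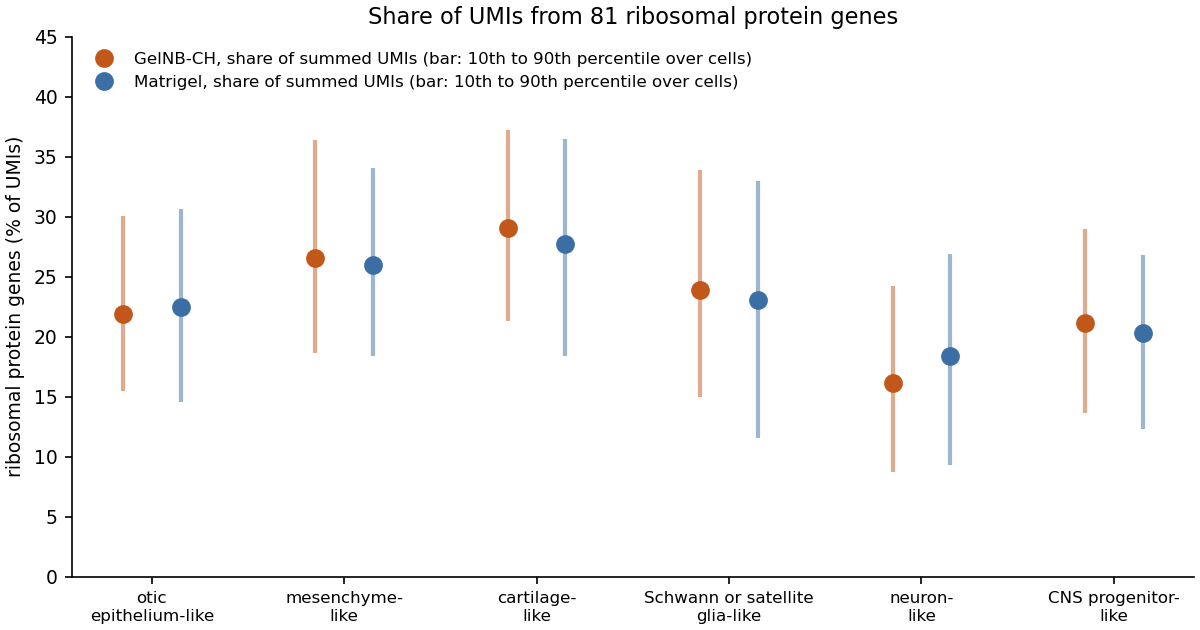
Share of UMIs from the 81 ribosomal protein genes (vertical axis, %) in 6 lineages (horizontal axis), GelNB-CH left of Matrigel in each pair; points are shares of summed UMIs and bars run from the 10th to the 90th percentile over cells. Cartilage-like cells are highest (29.1% and 27.7%) and neuron-like cells lowest (16.1% and 18.4%) in both libraries.

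Clusters that expressed cycling markers had a smaller share in 3 of the 4 lineages that held one. In otic epithelium-like cells it was 19.8% in the cycling cluster against 22.3% in the others in GelNB-CH, and 20.7% against 22.7% in Matrigel. Cycling Schwann or satellite glia-like cells had 18.7% against 24.6% in GelNB-CH and 18.7% against 23.7% in Matrigel. Cycling mesenchyme-like cells had 23.8% against 27.6% in GelNB-CH and 23.5% against 26.6% in Matrigel. Neuron-like cells differed less, with 16.5% against 16.0% in GelNB-CH and 17.8% against 18.5% in Matrigel. Cycling cells also carried more UMIs: the cycling otic cluster had a median of 15984 UMIs in GelNB-CH and 24470.5 in Matrigel, against 9624.5 and 15470.5 over all otic epithelium-like cells. Whether depth has a part in the lower share was not tested.

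In neuron-like cells the ratio of shares between the libraries was 0.876 (0.874 to 0.878), farther from 1 than in the other 5 lineages at the clustering used. At resolution 0.5 the cells named CNS progenitor-like were farther, at log2 -0.21 against -0.18 in neuron-like cells. They were then a single cycling cluster of 197 GelNB-CH and 23 Matrigel cells, below the minimum of 100 per library. Among cells of 8000 to 16000 UMIs, Schwann or satellite glia-like and neuron-like cells were both at -0.19. Within the 3 neuron-like clusters the libraries were closer, and not all in that direction. The cluster led by THSD7B had 18.6% in GelNB-CH and 19.2% in Matrigel, the cluster led by STMN2 had 14.3% and 13.8%, and the cycling cluster had 16.5% and 17.8%. The STMN2 cluster held 832 GelNB-CH and 125 Matrigel cells, and the THSD7B cluster 365 and 657. With each of these clusters given the same weight in both libraries, the share was 16.7% in GelNB-CH and 17.1% in Matrigel.

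Most single members, like most of all genes, stayed inside a fixed limit between the libraries over all kept cells. The limit was a level in GelNB-CH at least 25% higher or at least 20% lower, and 14 of 79 members were past it. Of these, 3 were higher and 11 were lower. Among all 10568 genes with at least 10 CPM in a library, 7.90% were that much higher and 12.2% that much lower in GelNB-CH. The median log2 ratio of GelNB-CH over Matrigel was 0.08 over the members and -0.03 over all genes. The called members nearest to the limit were RPL13A at a ratio of 1.26 and RPS26 at 0.740. The nearest uncalled member on the lower side was RPL31 at 0.834.

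RPS10, a protein at the head of the small subunit that is tagged with ubiquitin when ribosomes collide, stood alone above the family. It had 481 CPM in GelNB-CH against 195 CPM in Matrigel, a ratio of 2.46 (2.43 to 2.50). The difference was there in every lineage. Otic epithelium-like cells had 473 CPM in GelNB-CH against 201 CPM in Matrigel, mesenchyme-like cells 518 and 196 CPM, and cartilage-like cells 483 and 186 CPM. Schwann or satellite glia-like cells had 522 CPM in GelNB-CH against 207 CPM in Matrigel, neuron-like cells 323 and 142 CPM, and CNS progenitor-like cells 483 and 203 CPM. No lineage of one library reached the range of the other. The log2 ratio lay between 1.19 and 1.41 over lineages and between 1.09 and 1.5 over the 22 clusters with at least 50 cells in each library. A RPS10 UMI was found in 93.3% of GelNB-CH cells (95% exact Clopper-Pearson interval 92.9% to 93.7%) and in 86.4% of Matrigel cells (85.7% to 87.0%), although Matrigel cells were sequenced to more UMIs.

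RPS10 (chr6:34417454-34426125, minus strand, GRCh38) shares exons with a listed readthrough gene, RPS10-NUDT3 (chr6:34284887-34426071, minus strand), whose transcripts continue into the neighbouring NUDT3. The readthrough went the other way. RPS10-NUDT3 had 2.87 CPM (530 UMIs) in GelNB-CH and 9.56 CPM (1500 UMIs) in Matrigel, a ratio of 0.30 (0.272 to 0.332). In the GENCODE v29 annotation, 77.0% of the principal RPS10 transcript of 644 bases lies in exons of the readthrough gene, and its last exon of 94 bases does not. A read in the shared exons cannot be given to RPS10 alone, and the treatment of such reads in the authors' counting is not stated. The share of the summed UMIs of both genes that carried the readthrough name was 0.594% in GelNB-CH and 4.67% in Matrigel. By lineage the GelNB-CH values ran from 0.347% to 1.08% and the Matrigel values from 3.89% to 6.42%, with no overlap. The sum of both genes still gave 484 CPM in GelNB-CH against 205 CPM in Matrigel, a ratio of 2.36 (2.33 to 2.39). The part of reads left out because they match both genes was not tested, so the level of RPS10 in each library is uncertain. The readthrough gene also shares 43.3% of the NUDT3 transcript, and NUDT3 had 46.0 CPM in GelNB-CH against 43.3 CPM in Matrigel. UMIs with the readthrough name can thus come from the NUDT3 side, and which side they came from was not tested.

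**Figure D2:**
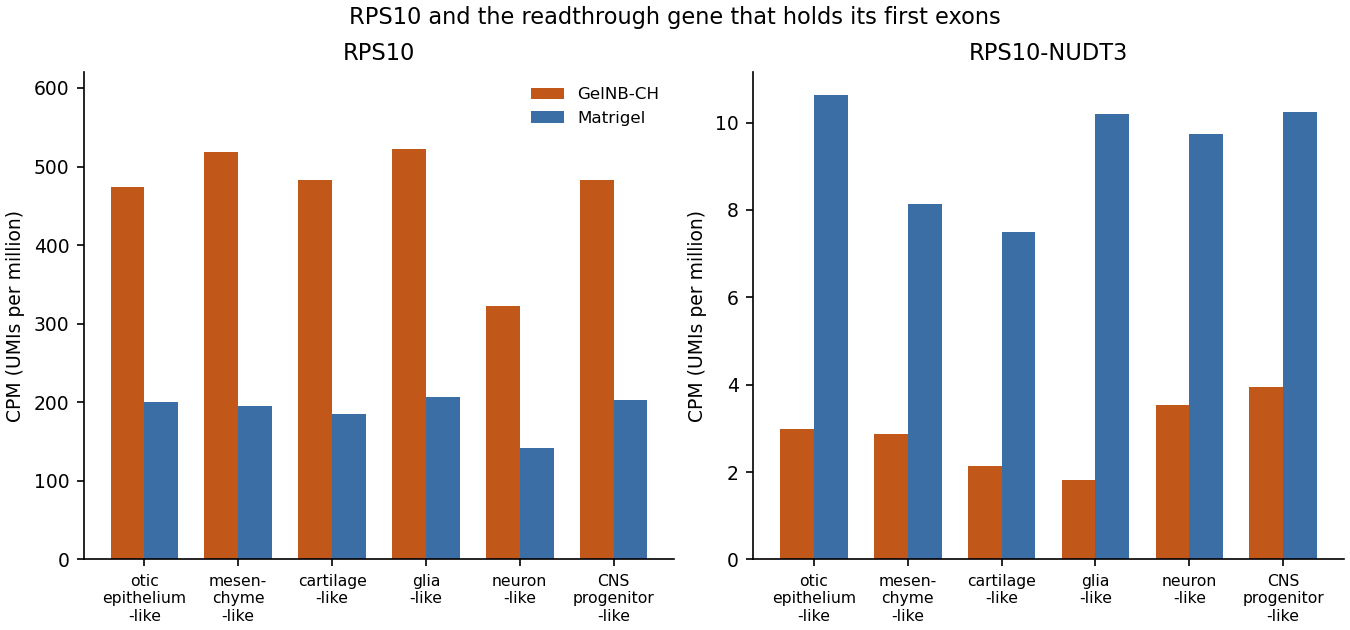
CPM (vertical axes) of RPS10 and of RPS10-NUDT3 in 6 lineages (horizontal axes; glia stands for Schwann or satellite glia), GelNB-CH bars left of Matrigel bars, 1 library each. RPS10 is higher in GelNB-CH and RPS10-NUDT3 is higher in Matrigel in every lineage.

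The remaining members past the limit on the higher side were RPS14 and RPL13A. RPS14, a platform protein of the small subunit whose loss of a copy underlies the anaemia of the 5q deletion syndrome, had 4851 CPM in GelNB-CH against 3754 CPM in Matrigel, a ratio of 1.29 (1.29 to 1.30). RPL13A, a large subunit protein known for a second role in silencing inflammatory transcripts, had 3487 CPM in GelNB-CH against 2763 CPM in Matrigel, a ratio of 1.26. RPS16, near the decoding site, did not reach the limit and had 2116 CPM in GelNB-CH against 1725 CPM in Matrigel. These sizes depend on the scaling, which can move all genes together: with median-of-ratios size factors the median of all genes was 0.08 in place of -0.03 on the log2 scale, and 19 of 79 members, and 1561 of 10556 genes in all, were then at least 25% higher.

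Lower in GelNB-CH was a group of small proteins. RPL37, a zinc-binding protein of the large subunit, had 2767 CPM in GelNB-CH against 4705 CPM in Matrigel, 1.70-fold lower in GelNB-CH. RPL38, whose loss in mice disturbs the axial skeleton through translation of Hox mRNAs, had 1096 CPM in GelNB-CH against 1846 CPM in Matrigel. RPS27, a zinc-finger protein of the small subunit, had 2917 CPM in GelNB-CH against 4851 CPM in Matrigel. RPL37A, also zinc-binding, had 3029 CPM in GelNB-CH against 4871 CPM in Matrigel. All 4 lay at log2 ratios of -0.69 to -0.77. RPS21 had 1590 CPM in GelNB-CH against 2504 CPM in Matrigel. RPL39, which lines the exit tunnel for the growing protein, had 2882 CPM in GelNB-CH against 4512 CPM in Matrigel. RPS29, a zinc-binding small subunit protein mutated in some Diamond-Blackfan anaemias, had 1805 CPM in GelNB-CH against 2789 CPM in Matrigel. The other 4 were RPL36A, RPL36, RPS28 and RPS26, at log2 ratios of -0.55, -0.52, -0.50 and -0.43.

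All 11 were at least 20% lower in GelNB-CH in each of the 6 lineages. RPL37, for example, had 2605 CPM in GelNB-CH against 4531 CPM in Matrigel in otic epithelium-like cells, and 1999 and 3830 CPM in neuron-like cells. Over 22 clusters its log2 ratio kept between -0.90 and -0.68. Of the 7695 genes with at least 10 CPM in a library in every lineage, 0.897% were this much lower in all 6 and 0.364% this much higher. Within the family, RPS10 was the 1 member higher in all 6.

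**Figure D3:**
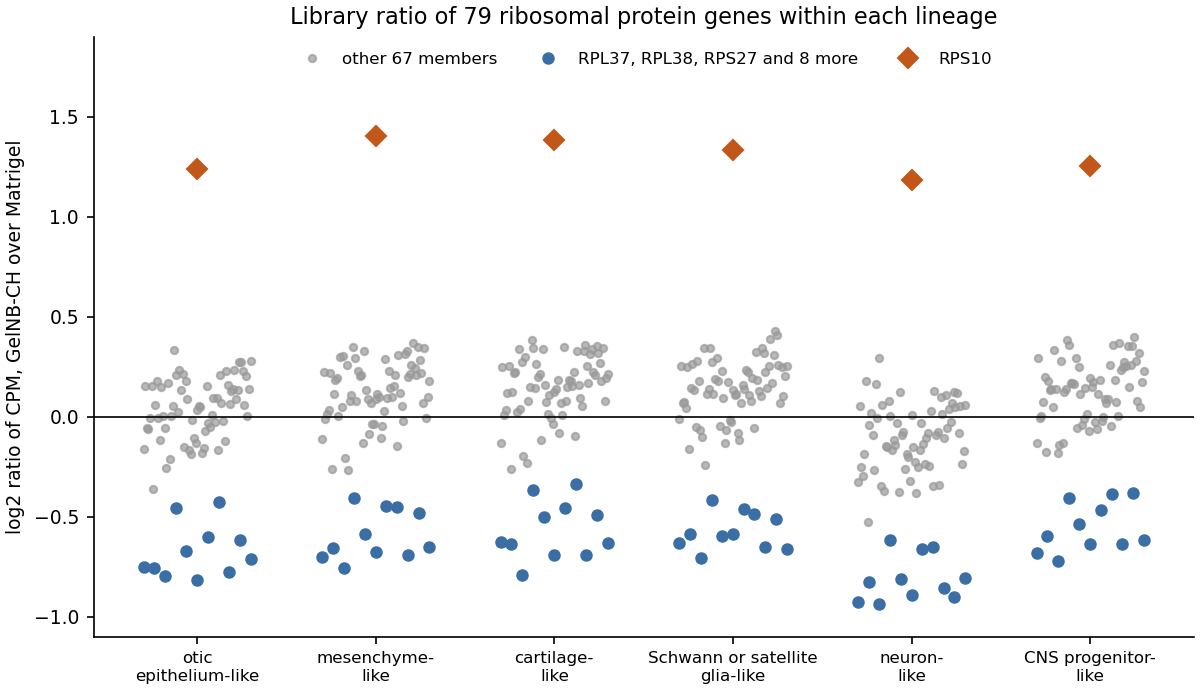
Log2 ratio of CPM, GelNB-CH over Matrigel (vertical axis), of 79 ribosomal protein genes in 6 lineages (horizontal axis; 1 point per gene, spread sideways for legibility). RPS10 stands above all other members (1.19 to 1.41) and the 11 genes lower in GelNB-CH form the lower band in every lineage.

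Otic epithelium-like cells, the lineage the organoids are made for, shared most of these calls. Here 2 members passed the limit on the higher side, RPS10 and RPS14, while RPL13A did not, and 12 were lower, the 11 above and RPL31. Over all 10469 genes compared in these cells, 7.58% were higher and 11.1% lower by that much. RPL38 had the lowest ratio, with 978 CPM in GelNB-CH against 1725 CPM in Matrigel (log2 -0.82). RPL10, a large subunit protein that joins late in assembly, came next after RPS14 on the higher side, with 6256 CPM in GelNB-CH against 5165 CPM in Matrigel.

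Neuron-like cells held more members past the lower limit. There 20 members were at least 20% lower in GelNB-CH and 1 was higher, RPS10, with a median log2 ratio of -0.14 over the members. Over all genes compared in neuron-like cells 18.3% were lower and 19.0% higher. When each of the 3 neuron-like clusters was given the same weight in both libraries, 12 members were lower and 2 higher, and the median was 0.04. No share over all genes is given at that weighting, so the change cannot be read as particular to the members.

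The 11 lower genes shared a short coding sequence, which the rule did not use. Their coding lengths ran from 153 to 345 bases with a median of 252, against a median of 475.5 in the other 68 members. Over the 79 members, coding length and log2 ratio had a Spearman rho of 0.56, a description over genes of the same 2 libraries. The length of the shortest annotated mRNA with the full coding sequence gave a rho of 0.16 over the same members. That length was 7686 bases for RPL37, 3647 for RPL37A and 1326 for RPS28, all among the 11 lower genes. This rho therefore depends on which transcripts are annotated. The length of the mRNAs present in these cells was not measured. The number of named pseudogenes gave a rho of -0.14. Some short members did not follow. RPL41, the shortest of all with 75 coding bases, had 5601 CPM in GelNB-CH against 5896 CPM in Matrigel (log2 -0.07), and RPLP1, an acidic protein of the stalk that calls in elongation factors, had 342 coding bases and 6395 and 6063 CPM.

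A pair of near copies differed from their partners in this. RPL39L has the same 153 coding bases as RPL39, but the shortest annotated mRNA with the full coding sequence is 653 bases for RPL39L and 401 for RPL39. RPL39L had 28.6 CPM in GelNB-CH against 28.5 CPM in Matrigel, a ratio of 1.00 (0.964 to 1.04). RPS27L and RPS27 both have 252 coding bases, with shortest such mRNAs of 6434 and 359 bases. RPS27L had 153 CPM in GelNB-CH against 150 CPM in Matrigel, a ratio of 1.02 (1.00 to 1.04). Over all kept cells neither copy was 20% lower in GelNB-CH.

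Short mRNAs outside the family also leaned this way, by less. Of the 11 members whose shortest mRNA was at most 500 bases, 7 were at least 20% lower in GelNB-CH and none was higher, with a median log2 ratio of -0.55. Of 53 other nuclear genes of that length, 13 were lower and 6 higher, with a median of -0.14. In otic epithelium-like cells the medians were -0.62 for 11 members and -0.20 for 54 other genes. ATP5ME, a subunit of the mitochondrial ATP synthase with an mRNA of 365 bases, had 241 CPM in GelNB-CH against 358 CPM in Matrigel. ROMO1, a small mitochondrial protein with an mRNA of 288 bases, had 185 CPM in GelNB-CH against 269 CPM in Matrigel. Both were picked after their values were seen, as were the length classes. Above 500 and up to 700 bases the medians were 0.13 for 27 members and 0.16 for 188 other genes. Among the lower members, RPS26 lies in that class, with a shortest mRNA of 623 bases. RPL37, RPL37A and RPS28 have only longer mRNAs with the full coding sequence in this annotation, the longest of 7686 bases. The part of transcript length or of library preparation in these differences was not tested, and with 1 library per group it cannot be told apart from the culture matrix.

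**Figure D4:**
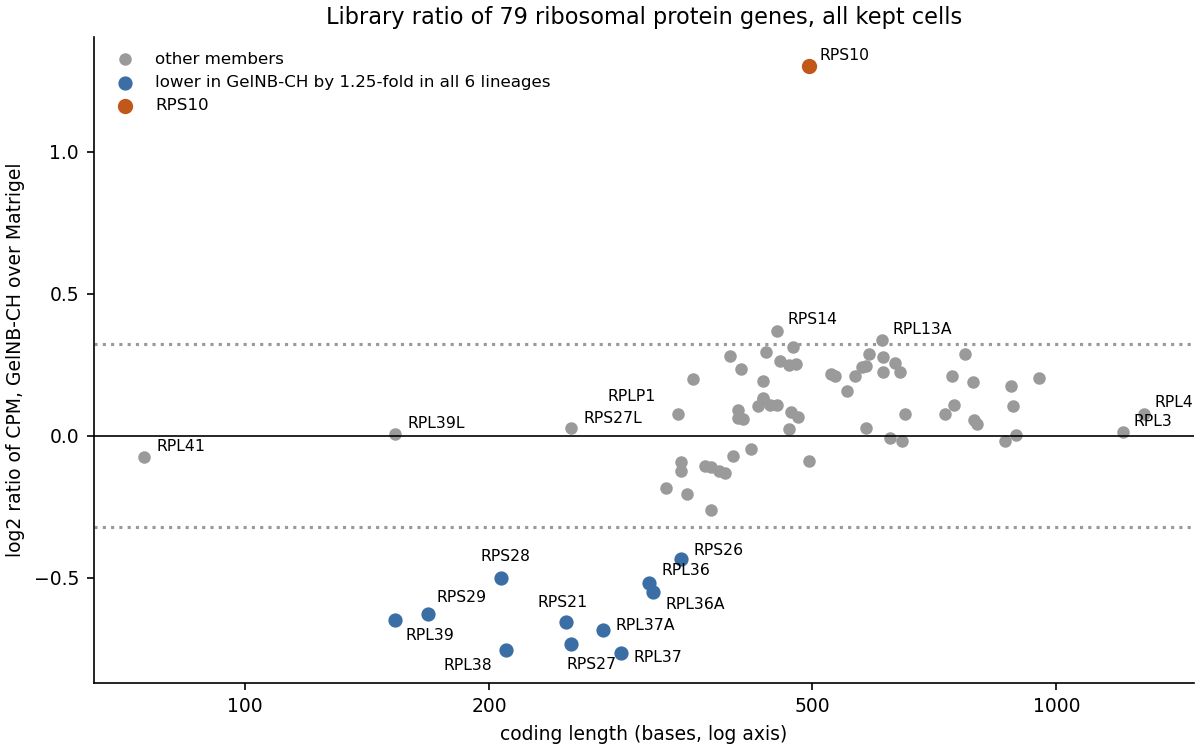
Log2 ratio of CPM, GelNB-CH over Matrigel, over all kept cells (vertical axis) against coding length in bases (log horizontal axis) for 79 ribosomal protein genes; dotted lines mark the limit of 25% higher and 20% lower. The 11 genes lower in all lineages have 153 to 345 coding bases, while RPL41, RPL39L and RPS27L are as short and lie near 0.

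Levels within the family spanned a wide range. RPLP1 was the most abundant member by the mean of both libraries. RPS12, of the small subunit, was also among the 3 highest, with 6680 CPM in GelNB-CH against 5505 CPM in Matrigel. The lowest were the near copies. RPL3L had 17 UMIs in GelNB-CH and 25 in Matrigel. RPL10L had 0 UMIs in 18253 GelNB-CH cells and 2 in Matrigel. The exact interval for the share of GelNB-CH cells with a RPL10L UMI reached up to 0.0202%.

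Across lineages the members kept almost fixed proportions. Each member's part of the family's UMIs was compared between a lineage and the mean of the 6 lineages, and in every lineage 77 of 79 members stayed within 25% of it in at least 1 library. The median member's largest shift shared by both libraries was 1.10-fold. RPS27L and RPL39L left this pattern by 1.5-fold in both libraries. The call of RPL39L was lost with doublets kept and among cells of 8000 to 16000 UMIs. On CPM in place of the share of the family it was lost too, and RPS27A, RPS12, RPS27L and RPLP1 were called. No count over all genes is given on CPM. Scaled to the family total, as the members were, 68.7% of 9897 genes left the pattern by 1.5-fold in both libraries. That total was a different share of UMIs in each lineage, which shifts genes outside the family but not the members as a whole. The 68.7% is therefore not a like measure for the members. Whether they kept closer to fixed proportions than other genes cannot be said from these values. Next in size, below the limit, were RPS4X and RPS12, both lower in CNS progenitor-like cells: RPS4X by log2 -0.32 in GelNB-CH and -0.33 in Matrigel, and RPS12 by -0.38 and -0.32. RPS12 was also lower in neuron-like cells, at -0.39 in GelNB-CH and -0.29 in Matrigel. RPS10, the exception between libraries, kept to the pattern between lineages, with its largest shift at log2 -0.30 in GelNB-CH and -0.31 in Matrigel, in cartilage-like cells.

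RPS27L was high in CNS progenitor-like cells. It had 284 CPM there in both GelNB-CH and Matrigel. Neuron-like cells had 162 CPM in GelNB-CH against 191 CPM in Matrigel, and otic epithelium-like cells 146 and 151 CPM. Cartilage-like cells were lowest, with 139 CPM in GelNB-CH against 126 CPM in Matrigel. As a part of the family, RPS27L was 0.75 above the mean lineage on the log2 scale in CNS progenitor-like cells in GelNB-CH and 0.84 in Matrigel, and it was -0.74 and -0.79 in cartilage-like cells. RPS27 itself stayed between -0.13 and 0.11 in every lineage of both libraries. A list of 20 p53 targets was followed beside it, of which 11 had at least 10 CPM in the mean lineage of both libraries. Their median CPM relative to the mean lineage was 0.23 in GelNB-CH and 0.36 in Matrigel in CNS progenitor-like cells, and -0.42 and -0.65 in cartilage-like cells, on the log2 scale. PURPL, a p53-induced noncoding RNA, had 24.7 CPM in GelNB-CH against 44.6 CPM in Matrigel in CNS progenitor-like cells, and 2.45 and 2.66 CPM in cartilage-like cells. CDKN1A, the cell cycle inhibitor, named after its values were seen, went the other way, with 8.10 CPM in GelNB-CH against 15.1 CPM in Matrigel in CNS progenitor-like cells and 16.4 and 23.3 CPM in cartilage-like cells. Between libraries PURPL had 4.52 CPM in GelNB-CH against 12.5 CPM in Matrigel, and PHLDA3, another target, 9.27 and 16.3 CPM. BAX, also a target, went the other way, with 82.0 CPM in GelNB-CH against 57.5 CPM in Matrigel. RPS27L had 153 and 150 CPM. The part of p53 in these levels was not tested.

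RPL39L followed the cycling clusters. In mesenchyme-like cells it had 84.1 CPM in the cycling clusters against 27.1 CPM in the others in GelNB-CH, and 83.2 against 21.3 CPM in Matrigel. In otic epithelium-like cells it had 50.9 against 16.5 CPM in GelNB-CH and 44.3 against 19.6 CPM in Matrigel. Schwann or satellite glia-like cells gave 84.0 against 29.7 CPM in GelNB-CH and 91.1 against 29.2 CPM in Matrigel, and neuron-like cells 54.0 against 17.3 CPM and 51.6 against 15.6 CPM. The 8 ratios lay between 2.26 and 3.90. RPL39L was the 1 member of 79 whose part of the family was at least 1.5-fold larger in the cycling clusters in all 4 lineages and both libraries, where 5.27% of all genes passed. RPL39 was not higher in cycling cells: in otic epithelium-like cells it had 2496 against 2686 CPM in GelNB-CH and 4063 against 4394 CPM in Matrigel. The low value of RPL39L in cartilage-like cells, which held no cycling cluster at resolution 1.0 but did at resolution 2.0, was 21.8 CPM in GelNB-CH against 18.0 CPM in Matrigel. Relative to the mean lineage it was -0.77 in GelNB-CH and -0.88 in Matrigel on the log2 scale, and without the cycling clusters -0.42 and -0.59, which is inside the 1.5-fold limit in GelNB-CH. RPS27L stayed outside the limit without them. The comparison by cycling was made after the values by cluster had been seen.

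**Figure D5:**
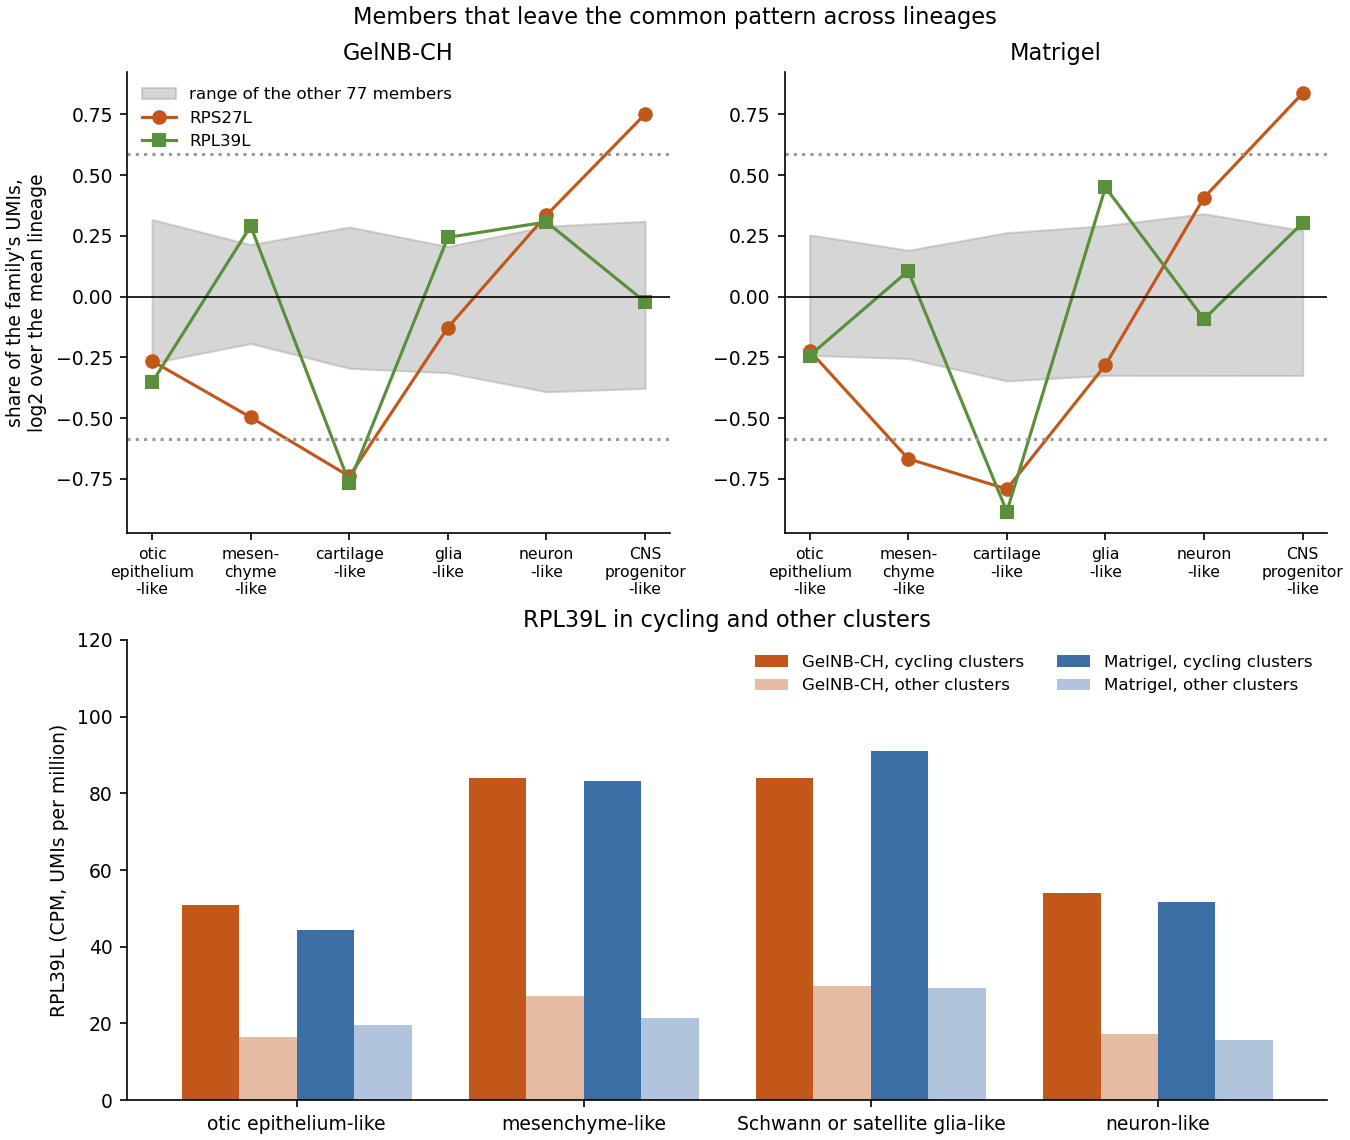
Upper panels show each lineage's share of family UMIs relative to the mean lineage (log2, vertical axis) for RPS27L, RPL39L and the range of the other 77 members, GelNB-CH left and Matrigel right; dotted lines mark 1.5-fold. The lower panel gives RPL39L in CPM in cycling and other clusters of 4 lineages, where all 8 cycling bars lie between 44.3 and 91.1 CPM and all others between 15.6 and 29.7 CPM.

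Genes that work with the family were mostly inside the same limit between libraries, and so were most of all 10568 genes compared. Of all genes 7.90% were higher and 12.2% lower in GelNB-CH, to be read beside the list counts here and in the next paragraph. RACK1, a scaffold on the small subunit, had 1887 CPM in GelNB-CH against 1892 CPM in Matrigel. FAU, which is cut to give a small subunit protein, had 1841 and 1436 CPM. Of 7 core proteins and near copies, 1 was at least 25% higher, FAU, and none was lower. RPL36AL, a near copy of RPL36A, had 297 CPM in GelNB-CH against 296 CPM in Matrigel, while RPL36A had 1655 and 2424 CPM. RPL22L1, a near copy of RPL22, had 154 CPM in GelNB-CH against 164 CPM in Matrigel. It varied between lineages, with 379 CPM in GelNB-CH against 327 CPM in Matrigel in cartilage-like cells, and 69.3 and 73.1 CPM in neuron-like cells.

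Among 25 other genes known for a terminal pyrimidine tract, none was higher and 3 were lower by the same limit, with a median log2 ratio of -0.07. EEF1A1, the elongation factor that brings in transfer RNA, had 6801 CPM in GelNB-CH against 7369 CPM in Matrigel, and TPT1 had 4172 and 4075 CPM. The largest differences were in VIM, with 3972 CPM in GelNB-CH against 5760 CPM in Matrigel, and HNRNPA1, with 1005 and 1347 CPM. In the mitochondrial ribosome 4 of 77 genes compared were higher and 2 lower. MRPL27 had 89.0 CPM in GelNB-CH against 64.0 CPM in Matrigel, and MRPL30 had 16.7 and 25.6 CPM. Of 20 genes for ribosome building 1 was higher, NHP2, with 171 CPM in GelNB-CH against 117 CPM in Matrigel, and none was lower. Of 13 initiation factors 1 was higher, EIF5A, with 138 CPM in GelNB-CH against 98.0 CPM in Matrigel. Of 12 p53 targets compared, 1 was higher and 5 were lower.

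Between lineages the mitochondrial ribosome did not track the cytosolic one. The median member of the cytosolic family was 1.24-fold above the mean lineage in cartilage-like cells in GelNB-CH and 1.19-fold in Matrigel, and 0.713-fold and 0.812-fold of it in neuron-like cells. The median mitochondrial ribosome gene was at 0.917-fold in GelNB-CH and 0.873-fold in Matrigel in cartilage-like cells, and at 0.982-fold and 0.990-fold in neuron-like cells. Genes with a pyrimidine tract lay on the same side as the family in these lineages, at 1.14-fold in GelNB-CH and 1.13-fold in Matrigel in cartilage-like cells and 0.775-fold and 0.839-fold in neuron-like cells. In otic epithelium-like cells they did not, at 1.02-fold in GelNB-CH and 1.05-fold in Matrigel, while the family was at 0.949-fold and 0.976-fold.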

How the data were processed

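Both libraries, 1 GelNB-CH and 1 Matrigel, were made with the 10x 3′ kit v3.1, per the labels. The deposited values are raw UMI counts, whole numbers per gene and cell barcode, per the file headers. The matrix was written by Cell Ranger 7.1.0 per the file headers, while the labels' protocols name Cell Ranger 4.0.0. STAR and GRCh38 (hg38) come from the submitters' processing notes. Which annotation was counted is not stated in these sources. Reads that match several genes, or overlapping genes, can be lost or misplaced in such counting, so members with many pseudogenes (91 named for RPL23A, 74 for RPSA) are uncertain.

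Cells needed at least 1000 genes and at most 15% mitochondrial UMIs. Doublets called by Scrublet in scanpy 1.11.5 at an expected 0.8% per 1000 barcodes (14.2% of GelNB-CH, 6.55% of Matrigel barcodes) were removed. Both libraries were clustered together, with no member among the 2000 variable genes, on 30 components and 15 neighbours, with Leiden clustering at resolution 1.0. Clusters were named from 14 marker lists when at least 3 markers and a share of 0.3 of the list were 2-fold above the median cluster and seen in 10% of cells. Alternatives changed the cell filter, doublets, depth, clustering, scaling, minimum level, fold and make-up.

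UMIs were summed by library and lineage and scaled to 1000000 (CPM). Ratios carry exact conditional binomial and shares exact Clopper-Pearson intervals at 95%. Named members were RPS10 and the near copies, the 5 largest and 5 smallest ratios over all and over otic cells, those that leave the common pattern and the 3 highest and 3 lowest levels. Each list gave at most 2 genes by size of ratio beside a few fixed ones, and other names were chosen after their values were seen. A few genes that this rule names are not reported here. Members and lists were chosen with earlier results of these data known. GENCODE v29 gave lengths and positions by Ensembl identifier for 34616 of 36601 genes, and 9934 of 10568 compared genes had an mRNA length. The calling functions were tested on simulated counts. TMM factors came from edgeR 4.0.16 in R 4.3.3. Intervals used scipy 1.17.1, and clustering used igraph 0.11.9, in Python 3.11.15.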

Additional observations from a re-analysis of the deposited data

Results flagged for a closer look

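The share of UMIs from ribosomal protein genes leaned in opposite directions in different lineages, and no test of that difference was possible with 1 library per group. On the log2 scale, GelNB-CH over Matrigel, it was -0.19 in neuron-like and -0.035 in otic epithelium-like cells, against 0.068 in cartilage-like, 0.057 in CNS progenitor-like, 0.053 in Schwann or satellite glia-like and 0.033 in mesenchyme-like cells. Apart from neuron-like cells these are shifts of under 5%, and 3 of them turned among cells of 8000 to 16000 UMIs. The neuron-like value was -0.026 when each of the 3 neuron-like clusters had the same weight in both libraries.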

How the results depend on the processing

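No paired analysis was possible because each group is 1 library. All values here are GelNB-CH before Matrigel. The family share was 23.4% and 23.4% over every deposited barcode, 23.5% and 23.5% with doublets kept, 24.3% and 25.3% among cells of 8000 to 16000 UMIs, 24.3% and 23.6% as a mean over cells, and 23.8% and 23.8% with the same make-up of lineages. The share in cartilage-like over neuron-like cells was 1.52 and 1.38 with doublets kept, 1.72 and 1.46 among cells of 8000 to 16000 UMIs, 1.76 and 1.51 with members allowed in clustering, and 1.80 and 1.5 at resolution 2.0. It was 1.81 in GelNB-CH at a limit of 10% mitochondrial UMIs and 1.52 in Matrigel at resolution 0.5. Members higher in GelNB-CH numbered 16 with TMM factors (1353 of all 10551 genes), 19 with median-of-ratios size factors (1561 of 10556) and 1 at 1.5-fold (294 of 10568), and 7 were lower at 1.5-fold (493 of 10568). In otic epithelium-like cells 7, 9 and 1 were higher under the same settings (1297 of 10455, 1352 of 10454 and 301 of 10469 genes), and 1 with doublets kept (940 of 10498) or among cells of 8000 to 16000 UMIs (1305 of 10452). The pattern across lineages was left by RPS27L alone with doublets kept, in that depth window or without the cycling clusters (chosen after seeing the data), a count of 1 each. It was left by 0 members at 2-fold, and by 4 on CPM in place of the share of the family (RPS27A, RPS12, RPS27L and RPLP1). No like count over all genes is given for these settings of the lineage pattern. The log2 ratio of family shares turned to -0.014 in cartilage-like cells with doublets kept. In CNS progenitor-like cells it turned to -0.0033 with doublets kept, -0.013 in the depth window, -0.21 at resolution 0.5 and -0.027 at resolution 2.0. At resolution 0.5 that name held only a cycling cluster of 197 GelNB-CH and 23 Matrigel cells. In the depth window it was also -0.039 in mesenchyme-like and -0.19 in Schwann or satellite glia-like cells. The causes were not tested. For the main comparisons 44 values stayed within their limits and the 34 given above did not. The direction of RPS10 and RPL37 held under every library and scaling setting. Depth limits RPL3L and RPL10L, with 25 UMIs or fewer.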

Other observations

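The shallowest cells of the Matrigel library were poor in ribosomal protein transcripts. Below 5000 UMIs the family held 22.2% of UMIs in 1939 GelNB-CH cells and 12.8% in 418 Matrigel cells. From 5000 to 10000 UMIs it held 25.8% in GelNB-CH and 24.0% in Matrigel, from 10000 to 20000 UMIs 23.4% and 24.8%, and above that 20.7% and 22.1%. The median mitochondrial share of the cells below 5000 UMIs was 3.03% in GelNB-CH and 2.37% in Matrigel.

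Lineages too small to compare gave 15.8% in 16 GelNB-CH and 14.4% in 12 Matrigel hair cell-like cells, and 30.1% in 80 GelNB-CH and 34.9% in 3 Matrigel melanocyte-like cells.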
